A study of Homo sapiens with 12 samples.

Results

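Replication-dependent histone genes encode the linker histone H1 and the core histones H2A, H2B, H3 and H4 that package newly made DNA. They were chosen here by gene symbol, as every symbol of the H1-1 to H1-6, H2AC, H2BC, H3C and H4C series with pseudogenes left out. A gene's own values did not decide whether it entered. The set as a whole was chosen with earlier results of these data known. The rule found 64 of the 58735 genes counted: 6 of H1, 16 of H2A, 17 of H2B, 11 of H3 and 14 of H4. Of these, 53 lay on chromosome 6 between 25723397 and 27893891 and 9 on chromosome 1 between 149782689 and 149887965 (GRCh38, GENCODE release 44). H2AC18 and H2AC19 had no match by identifier in that annotation. Each of the 62 matched genes had a reference transcript of a single exon.

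Replication-dependent histone genes are transcribed mainly in S phase, when the cell copies its DNA. Their mRNAs are unusual in that they end without a poly(A) tail, in a stem-loop bound by the protein SLBP. The U7 snRNP guides the cut just downstream of the stem-loop, and the mRNAs are degraded quickly when DNA synthesis stops. The classes are needed together, since a nucleosome core holds H2A, H2B, H3 and H4 and H1 binds the linker DNA between cores.

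The study used 293T cells, a human embryonic kidney line that carries the SV40 large T antigen, transduced with the lentiviral vector LT3REVIR for doxycycline-induced expression of 4EBP1-4A. This is 4EBP1, a repressor that binds the cap-binding protein eIF4E, with alanine in place of T37, T46, S65 and T70, which kinases phosphorylate. Cells that carried the vector were sorted by GFP as a population, and both groups carried it. DMSO was given to 1 group and doxycycline to the other, at 2 mg/mL for 12 h by the protocol in the labels, whereas the series description gives 2 h and the study's account of its results a longer time than either, so the length of treatment is uncertain. Both then received cycloheximide, which holds ribosomes on mRNA. Each group had 3 RNA-seq libraries of total RNA and 3 Ribo-seq libraries, which hold the fragments that ribosomes protect. No group received doxycycline without the construct, so an effect of the drug and one of 4EBP1-4A cannot be told apart. The study calls its replicates biological, but the labels do not say that they were separate cultures. If they were not, p-values measure only technical spread between these libraries.

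Doxycycline replicate 3 stood apart from the other RNA-seq libraries. It had 21687906 reads on genes against 45887231 to 57824136 in the other 5, and 88.4% of all that was counted for it fell under alignments that were not unique, against 54.9% to 69.9%. The main comparison is given with and without it. Some single genes, pairs of genes and the other gene lists are given below in only 1 of these fits. Levels are given as CPM, a gene's reads relative to the library's reads on genes after scaling between libraries with TMM factors, which assume that most genes do not change. EIF4EBP1, the gene of 4EBP1, stood at 156, 157 and 169 CPM in DMSO and at 260, 281 and 267 CPM with doxycycline, and reads of the construct and of the cell's own gene were not separated. The log2 change was 0.75 ± 0.10 (SE), with an adjusted p of 0.326 for all 6 libraries and 1.175e-05 without doxycycline replicate 3 in edgeR's quasi-likelihood test. All 8 markers fixed for 293T cells were above 1 CPM in every library and summed to 1130 to 1429 CPM. Markers of blood cells summed to at most 0.256 CPM, those of keratinocytes to at most 5.82 CPM with KRT5 and KRT14 at 0, and those of fibroblasts to 10.8 to 16.4 CPM in 5 libraries and 27.8 CPM in doxycycline replicate 3. The part of these differences in the results was not tested.

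The stem-loop was searched for in the last exon of each gene and in the 60 bases after it, as the stem GGNNCT, the loop TNTN and the closing stem AGNNCC, with 6 pairs around a loop of 4 bases. All 62 members with exon sequence held it, in 10 different spellings, at a median of 5 bases before the annotated end. Elsewhere it was rare, at 0.390% of the other protein-coding genes anywhere in the transcript and at 0.0450% in its last 100 bases, where histone genes that are not members here made up most of the 9 matches. One spelling was shared by 34 members of H1, H2A, H2B and H3. All 14 members of H4 had a C-G pair where all members of the other classes had T in the first strand of the stem, and the loop of 10 members ended in A. The following were read from the GRCh38 sequence, 5′ to 3′ on the gene's strand, with the stem-loop in capitals. They are shown for the highest member of H1 and of H4 and for members whose change is described below.
H1-4, chr6:26157090-26157115, + strand: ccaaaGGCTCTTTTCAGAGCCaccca
H4C3, chr6:26104312-26104337, + strand: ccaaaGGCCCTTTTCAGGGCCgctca
H4C2, chr6:26026896-26026921, - strand: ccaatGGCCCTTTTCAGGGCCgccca
H2BC11, chr6:27132316-27132341, - strand: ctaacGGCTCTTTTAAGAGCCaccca
H2BC4, chr6:26123467-26123492, - strand: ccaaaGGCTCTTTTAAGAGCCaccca
H2AC7, chr6:26198784-26198809, - strand: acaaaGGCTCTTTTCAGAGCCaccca
H3C12, chr6:27890315-27890340, - strand: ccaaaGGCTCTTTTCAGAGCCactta
H3C6, chr6:26225591-26225616, + strand: ccaaaGGCTCTTCTCAGAGCCaacca
H2BC21, chr1:149886183-149886208, - strand: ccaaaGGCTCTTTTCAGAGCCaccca
In H2BC21 the stem-loop lay 1729 bases before the end of an annotated exon of 2224 bases, so the reference transcript runs on past the usual end of a histone mRNA.

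The promoters differed by class in the letters they held. RefSeq promoters of GRCh38.p14, from 250 bases before to 50 after the start, were matched for 59 of the 64 members. The octamer ATTTGCAT, the sequence bound by the factor OCT1, was searched for on both strands. It stood in 14 of 17 promoters of H2B (82.4%) and 11 of 15 of H2A (73.3%), in 1 of 9 of H3, and in none of the 6 of H1 and 12 of H4, against 1.8% of all 27305 promoters. The match of H3 was given for H3C4 at chr6:26199394-26199423, the same place as for H2AC7 and H2BC7. The H3C4 gene as annotated here reaches only to 26197286, so this promoter lies outside it. Counts of TATAAA and CCAAT below include this promoter for H3C4. Many genes of H2A and H2B are transcribed in opposite directions from 1 shared stretch of DNA, and such a pair can share an octamer. The sequences below are of 4 promoters of H2B, read in the direction of the H2B gene with the octamer in capitals. They are shown because H2BC11, H2BC4 and H2BC21 are among the members called lower and H2BC7 is the partner of another, H2AC7.
H2BC11, chr6:27132824-27132853, - strand: ctcttcaccttATTTGCATaagcgattcta
H2BC4, chr6:26124031-26124060, - strand: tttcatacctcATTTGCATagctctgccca
H2BC21, chr1:149886710-149886739, - strand: tcggagccctaATTTGCATaaggtggttat
H2BC7, chr6:26199394-26199423, + strand: agaatcacctaATTTGCATaccacagggca
The octamer of H2BC7 lies in the promoter that the gene shares with H2AC7. TATAAA stood in 67.8% of the members' promoters against 12% of all promoters. CCAAT stood in every promoter of H1, H2A, H2B and H3 and in 3 of 12 of H4 (25%), against 35.7% of all. A match is a description of these letters and does not show that a factor binds there.

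The members ranged from no read to 292119 reads summed over the 6 RNA-seq libraries. In these sums 38 members had more than 1000 reads, 21 had fewer than 100, and H2AC1, H3C4 and H4C7 had none, which with a floor of 3 reads allows up to 0.0519 to 0.138 CPM per library for counting error alone. To compare genes with each other, levels were divided by the length of the reference transcript and are given as CPM per kb of transcript in the 3 DMSO libraries (mean ± SD, n = 3). The order within a class is that of uniquely aligned reads, with no adjustment for the room for such reads. Stretches of 50 bases found once in the genome, described below, made up 36.55% of H2AC13 (321 ± 7.52), 42.83% of H2BC12 (233.4 ± 32.05) and 27.86% of H3C13. In H2AC11 they made up 97.07%, in H2BC5 89.93% and in H3C10 100%. Of H1, H1-4 stood at 1262 ± 22.5 and H1-2 at 1244 ± 49.7, which did not differ beyond their spread, while H1-3 stood at 136.7 ± 17.2. The highest of H2A was H2AC11 (530.0 ± 37.3), followed by H2AC20 (403 ± 19.4) and H2AC12 (394.0 ± 37.6), which overlapped in their spread, and by H2AC6 (338 ± 18.1). Of H2B, H2BC5 (464 ± 16.7) and H2BC4 (438 ± 11.5) led H2BC11 (379 ± 38.7) and H2BC17 (269 ± 25.3). H3C10 (460.1 ± 45.2) was well above H3C1 (150.4 ± 12.5), H3C7 (82.9 ± 4.85) and H3C13 (72.8 ± 7.96). H4C3 (640.1 ± 27.7) led H4C2 (443 ± 14.5), H4C4 (434 ± 27.3) and H4C5 (396 ± 7.35). H1-2 and H1-4 alone made up 32.9% of the summed CPM of all members in DMSO, and H1 34.7%, H2A 20.2%, H2B 21.7%, H3 7.34% and H4 16.1%. These are shares of uniquely aligned reads, not divided by length, and so not shares of mRNA molecules. The reference transcript of H1-4 has 787 bases and that of H4C3 has 405.

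**Figure D1:**
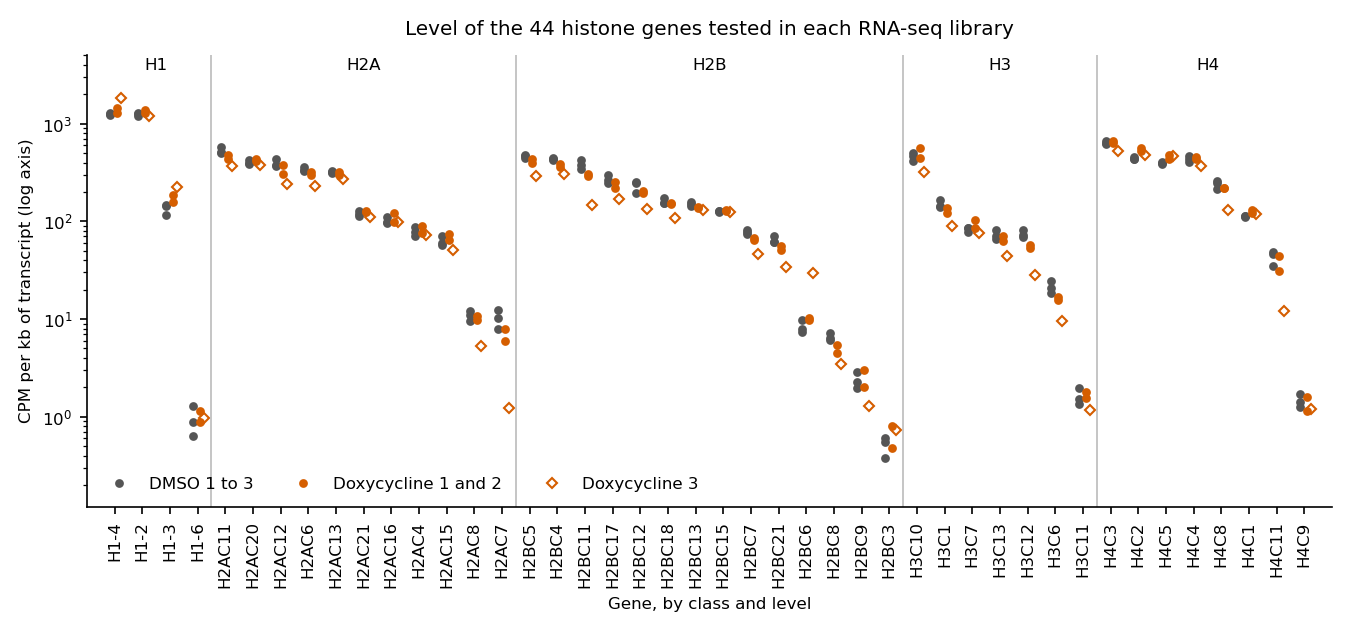
Level of each of the 44 members tested in every RNA-seq library, in CPM per kb of transcript on a log axis, with the genes ordered by class and level. Grey points are the 3 DMSO libraries, filled orange points doxycycline replicates 1 and 2, and open diamonds doxycycline replicate 3, which lies below the others for most members of H2B and above them for H1-4, H1-3 and H2BC6.

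The coding sequences of these genes are so alike that a read can fit several of them, and the authors kept only reads with 1 alignment. Each reference transcript was cut into windows of 50 bases, and the share of windows found once in GRCh38 was taken as the room for unique alignment. All windows were found once for 30 of 62 members and no window for 4 members (H3C14, H3C15, H4C14 and H4C15). Of the 6 members with under 10% such windows, 5 had fewer than 100 reads, against 13 of the 44 members with 90% or more. Their low counts therefore cannot be told apart from reads that were not counted. Members with all windows unique and no or few reads, such as H2AC1 and H3C8, are not limited in this way. There are 6 members that overlap another annotated gene. On the same strand, 96.6% of the exon of H3C4 and 85.3% of that of H2AC7 lie in ENSG00000282988. Of the exon of H2AC17, 71.0% lies in H3C12 on the same strand. The exon of H2BC4 lies wholly within ENSG00000291336 on the other strand. H3C4 had no read and H2AC17 had 12, and whether reads were left out because of the overlap was not tested. The sources do not say if strand was considered in the counting, so the values of these members are uncertain.

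**Figure D2:**
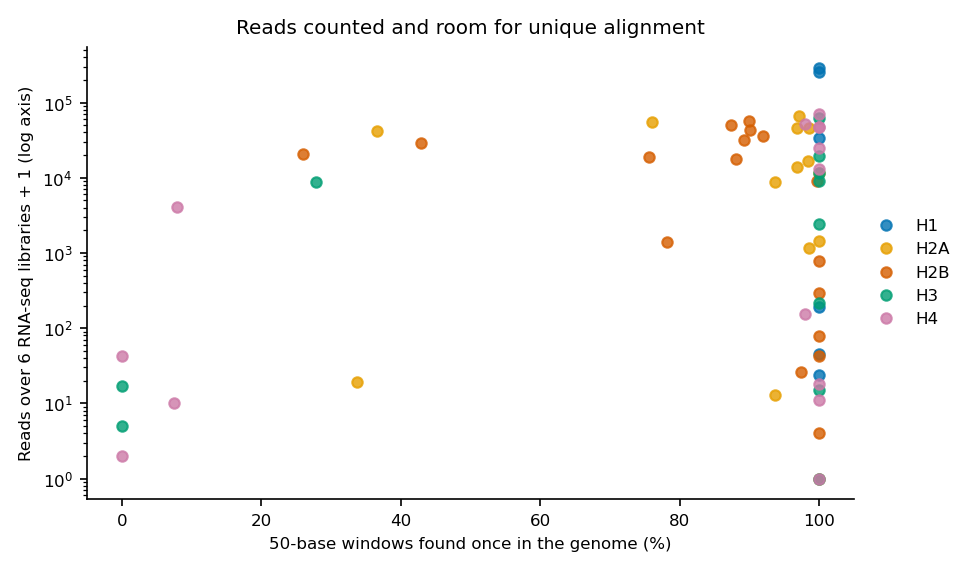
Reads counted for each of the 62 members with sequence, summed over the 6 RNA-seq libraries with 1 added (log axis), against the percentage of 50-base windows of the transcript found once in the genome. Colors show the class. Genes with no window found once have fewer than 100 reads, and genes with 100% span the whole range of the vertical axis.

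The main comparison asked how the mRNAs changed when 4EBP1-4A was induced. With all 6 libraries, the median change was below 0 for H2B and H3 and above 0 for H1, but no single gene passed the test. With doxycycline replicate 3 left out, H2AC7, H2BC11, H2BC21, H2BC4, H3C12 and H3C6 fell by 0.23 to 0.55 on the log2 scale, and H1-3 and H4C2 rose by 0.33 and 0.29. A gene was tested when at least 3 of the 6 libraries held at least 10 of its reads, which 44 of the 64 members and 20552 genes in all did, and was called at an adjusted p (Benjamini-Hochberg over all genes tested) under 0.05 in edgeR's quasi-likelihood test. In bulk RNA, fewer cells in S phase and less histone mRNA per cell cannot be told apart.

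With 6 libraries edgeR called 0 of 20552 genes (0%), and so 0 members. DESeq2 also called no member. At an unadjusted p under 0.05, 7 members were lower and 2 higher, against 848 (4.13%) and 1969 (9.58%) of all genes tested. The median log2 change over the 44 members was -0.13, and -0.04 over all genes tested. Below 0 were 29 of the 44 members and 53.7% of all genes tested. By class the medians were 0.19 for H1, -0.12 for H2A, -0.32 for H2B, -0.29 for H3 and -0.06 for H4. When libraries were scaled to their total reads on genes only, the median of all genes moved to 0.10, that of the members to -0.003, and those of H2A and H4 turned to 0.02 and 0.07, whereas H2B (-0.19) and H3 (-0.16) stayed below 0 and H1 (0.33) above.

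All 3 doxycycline libraries lay below all 3 DMSO libraries for 13 of the 44 members (29.5%), against 20.8% of all genes tested. These were 7 of H2B, 3 of H2A and 3 of H3. All 3 lay above for 5 members (11.4%), against 17.7% of all genes, and these were 2 of H1 and 3 of H4. For a single gene, 3 libraries against 3 allow a two-sided exact permutation p of no less than 0.1.

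Without doxycycline replicate 3, edgeR called 6 members lower (13.6%), against 3.99% of all genes tested, and 2 members higher (4.55%), against 3.38%. The median change over members was -0.07, with 23 of 44 below 0. Over all genes tested the median was -0.009, with 51.5% below 0. The counts rested on few libraries. With a second library left out as well, the calls among all 20552 genes moved with those among the members. Without doxycycline replicate 2, no member was called, and 7 genes in all were lower and 2 higher. Without DMSO replicate 1, 1 member was lower and 2 higher, against 227 and 170 genes (1.11% and 0.827%). Without DMSO replicate 2, 13 were lower and 3 higher, against 1508 and 1400 genes (7.34% and 6.81%). Without DMSO replicate 3, 4 were lower and 0 higher, against 311 and 334 genes (1.51% and 1.63%). Without doxycycline replicate 1, 6 were lower and 5 higher, against 1712 and 1274 genes (8.33% and 6.20%). With a lone doxycycline library, the fit takes its spread from the DMSO libraries.

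**Figure D3:**
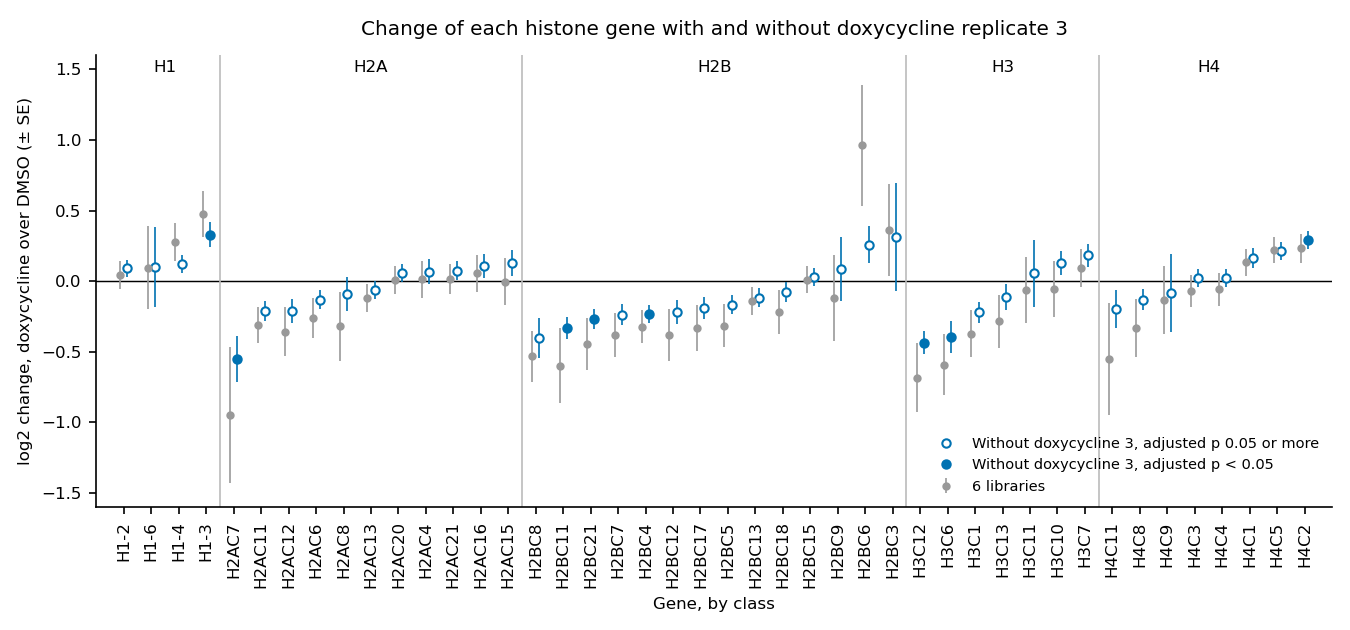
log2 change of each member tested, doxycycline over DMSO, with its standard error. Grey points use all 6 libraries and blue points leave out doxycycline replicate 3, filled where the adjusted p was under 0.05. Leaving the library out brings most members nearer to 0 and narrows most errors, and 8 members are filled.

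The linker histone H1 compacts chromatin by binding between nucleosomes, and none of its 4 tested members was below 0 with or without doxycycline replicate 3. Of all genes tested, 53.7% and 51.5% were. H1-4 stood at 975, 995 and 1010 CPM in DMSO and at 1021, 1142 and 1443 CPM with doxycycline. Its groups did not overlap, with the highest value in doxycycline replicate 3, and the log2 change was 0.28 ± 0.14 (SE, adjusted p = 0.326) with 6 libraries and 0.12 (adjusted p = 0.228) without that replicate. H1-3 stood at 112, 115 and 90.7 CPM in DMSO and at 123, 144 and 176 CPM with doxycycline, again with no overlap. It rose by 0.33 ± 0.09 without doxycycline replicate 3 (adjusted p = 0.0337), while with 6 libraries the change was 0.48 ± 0.16 (adjusted p = 0.326). H1-2 stood at 944, 872 and 911 CPM in DMSO and at 934, 1005 and 872 CPM with doxycycline, so its groups overlapped. With the GC correction described below, the change of H1-4 shrank to 0.02 with 6 libraries and to -0.01 without doxycycline replicate 3, and that of H1-2 was -0.10 and 0.01. H1-6, a form known from the testis, was at 0.457 to 0.934 CPM in all libraries.

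H2A forms dimers with H2B in the nucleosome core, and 7 of its 11 tested members were below 0 with 6 libraries, beside 53.7% of all genes. Without doxycycline replicate 3, 6 were, beside 51.5%. H2AC11 stood at 282, 248 and 253 CPM in DMSO and at 214, 237 and 180.2 CPM with doxycycline, with no overlap. Its log2 change of -0.21 ± 0.07 without doxycycline replicate 3 did not pass the test (adjusted p = 0.066). H2AC6 was 186, 168 and 173 CPM against 153, 168 and 119 CPM, so doxycycline replicate 2 lay just under the lowest DMSO library. H2AC7 had the largest decrease of all members, at 6.24, 4.02 and 5.20 CPM in DMSO and 4.00, 3.05 and 0.631 CPM with doxycycline. The last of these values was only 16 reads, and its 6-library change was -0.95 ± 0.48 (adjusted p = 0.326). Without that library H2AC7 fell by 0.55 ± 0.16 (adjusted p = 0.0466). H2AC12 (199.7, 173 and 168 against 138, 173 and 109.6 CPM) and H2AC20 (209.9, 191 and 197 against 202.5, 212 and 187 CPM) overlapped between groups.

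H2B held 3 of the 6 members called lower without doxycycline replicate 3, where 3.99% of all genes tested were called lower. Of its 14 tested members, 11 were below 0 with 6 libraries and 10 without that replicate, beside 53.7% and 51.5% of all genes. H2BC11 stood at 201.5, 164.6 and 179 CPM in DMSO and at 148, 141 and 69.96 CPM with doxycycline. It fell by 0.33 ± 0.08 without doxycycline replicate 3 (adjusted p = 0.0201), and with it the change was -0.60 ± 0.27 (adjusted p = 0.326). H2BC4 stood at 206, 196 and 202 CPM in DMSO and at 177, 166 and 139.9 CPM with doxycycline. Its fall of 0.23 ± 0.06 (adjusted p = 0.0339) was the smallest among the members called lower. H2BC21, the member with the long annotated transcript, went from 156, 138 and 136 CPM to 113.5, 124 and 76.7 CPM and fell by 0.27 ± 0.07 (adjusted p = 0.0336). For all these genes every doxycycline library was below every DMSO library, and doxycycline replicate 3 was the lowest.

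Other members of H2B moved less clearly. H2BC5, the highest of the class by uniquely aligned reads, was 233, 217 and 226 CPM in DMSO and 211, 191 and 141 CPM with doxycycline, without overlap. Its change of -0.17 ± 0.07 without doxycycline replicate 3 did not pass (adjusted p = 0.119). H2BC17 was 138, 114 and 124.5 CPM against 102, 118.5 and 78.9 CPM, which overlapped. H2BC6 had the largest increase of all members with 6 libraries, 0.96 ± 0.43 (adjusted p = 0.326), which rested on 1 library: it was 3.68, 4.59 and 3.43 CPM in DMSO and 4.77, 4.58 and 13.9 CPM with doxycycline. Without doxycycline replicate 3 the change was 0.26 ± 0.13 (adjusted p = 0.220). H2BC3 was among the 5 largest increases too, at 0.36 ± 0.33, but lay between 0.185 and 0.389 CPM in every library.

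H3 carries many of the modified residues that mark active and silent chromatin. Without doxycycline replicate 3, 2 of its 7 tested members were called lower, beside 3.99% of all genes tested. H3C12 stood at 41.3, 35.7 and 37.2 CPM in DMSO and at 27.2, 29.1 and 14.5 CPM with doxycycline. Its fall of 0.44 ± 0.08 had the lowest adjusted p of all members (0.00978). H3C6 went from 11.7, 8.99 and 10.1 CPM to 7.49, 8.12 and 4.65 CPM and fell by 0.40 ± 0.11 (adjusted p = 0.039). For both, no doxycycline library reached a DMSO library. H3C1 (83.7, 71.96 and 73.6 against 62.3, 68.9 and 45.8 CPM) was likewise lower in every doxycycline library, with a change of -0.22 ± 0.08 (adjusted p = 0.0766). H3C10, the most abundant of the class, overlapped fully between groups at 245, 201 and 225 CPM and 216.5, 273 and 156 CPM, and its change was -0.06 ± 0.20 with 6 libraries and 0.13 ± 0.09 without doxycycline replicate 3.

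H4 pairs with H3 in the tetramer at the center of the nucleosome. No member of it was called lower with 6 libraries or without doxycycline replicate 3, beside 0% and 3.99% of all genes tested. When DMSO replicate 2 was left out as well, H4C11 was called lower, beside 7.34% of all genes. With the GC correction on those libraries, H4C11 and H4C8 were called lower, beside 3.10%. H4C2 stood at 178.5, 169.5 and 168 CPM in DMSO and at 204, 218 and 184 CPM with doxycycline, without overlap. It rose by 0.29 ± 0.06 without doxycycline replicate 3 (adjusted p = 0.0163), and with 6 libraries the change was 0.23 ± 0.10 (adjusted p = 0.326). H4C5 was 166, 163 and 160.2 CPM against 179.6, 199 and 192 CPM, also without overlap, and missed the threshold by little at 0.21 ± 0.06 (adjusted p = 0.05002). H4C3, the highest of the class, was 271, 248.5 and 258 CPM against 267, 259 and 214 CPM and overlapped, as did H4C4. H4C11 had the fifth largest decrease with 6 libraries, -0.55 ± 0.40, at 18.9, 13.5 and 18.1 CPM against 17.2, 12.2 and 4.73 CPM, but only 7.94% of its windows were found once in the genome.

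Levels were also summed over each class. Reads with more than 1 alignment were left out by the authors and are missing from the sums as well. The H1 sum was 2033, 1982 and 2013 CPM in DMSO and 2079, 2292 and 2493 CPM with doxycycline. The H2B sum was 1333, 1179.6 and 1247 CPM against 1099, 1087 and 791 CPM. These were the classes whose groups did not overlap, with H1 higher and H2B lower in all 3 doxycycline libraries. The H1 sum rested on 2 genes, H1-4 and H1-2, with 94.7% of it in DMSO, and the groups of H1-2 overlapped. With the GC correction described below, which the sums do not use, these 2 genes changed by 0.02 and -0.10 with 6 libraries. H2A (1246, 1117 and 1139.5 against 1045, 1162 and 899 CPM), H3 (463, 388 and 422 against 387, 464 and 280.03 CPM) and H4 (972, 901 and 917 against 981, 1012 and 845 CPM) overlapped. All members together summed to 5784 ± 243 CPM in DMSO and 5638 ± 357 CPM with doxycycline (SD, n = 3), a difference within the spread. Doxycycline replicate 3 was the lowest library for H2A, H2B, H3 and H4 and the highest for H1.

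**Figure D4:**
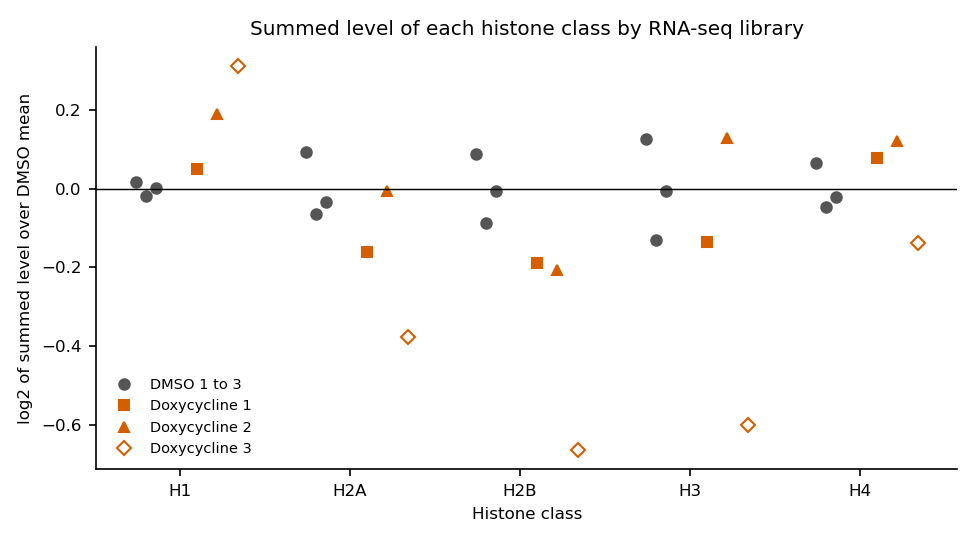
Summed CPM of each histone class in each RNA-seq library, as log2 of its ratio to the DMSO mean of the class. Grey points are the DMSO libraries and orange symbols the 3 doxycycline libraries, with replicate 3 as an open diamond. Groups separate for H1 and H2B, and replicate 3 lies lowest for the core histones.

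Members that share a promoter region were compared with each other. Starts of an H2A and an H2B gene faced away from each other within 1 kb in 11 pairs, and both genes were tested in 8. Without doxycycline replicate 3 both were below 0 in 6 of these pairs and both above in 1 (H2AC15 and H2BC15, 0.13 and 0.03). Of all single genes tested, 51.5% were below 0 in this fit. The pair H2BC21 and H2AC20, which share the octamer printed above, split, with -0.27 for the first and 0.06 for the second. H2AC7 and H2BC7 changed by -0.55 and -0.24, and H2BC11 and H2AC11 by -0.33 and -0.21. Of the pairs of other kinds, H3C7 and H2BC9 changed by 0.18 and 0.08. H3C12 and H2BC17 (-0.44 and -0.19) counted as a pair only by the outer end of the annotated H3C12 gene, at 27893106. The reference transcript of H3C12, of 512 bases with its last base at 27890315, starts more than 1 kb from H2BC17 at 27893425. Of the 10 tested members with an annotated transcript over 900 bases, 4 were called lower (H2BC4, H2BC11, H2BC21 and H3C6). Among the other 34, 2 were, beside 3.99% of all genes tested. This length was chosen after the values were seen, and which transcript gave the reads was not tested.

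GC content moved with the change across all genes. Over 14262 protein-coding genes the log2 change correlated with the GC content of the reference transcript, with a Pearson r of 0.772 and a Spearman rho of 0.801 for 6 libraries, and 0.625 and 0.688 without doxycycline replicate 3. These are correlations across genes of the same libraries, which are not independent replicates. Members lay between 47.9% and 64.4% GC, with a median of 57.5%, above the 48.7% of the coding genes. Over the 44 members r was -0.04 for 6 libraries and -0.02 without doxycycline replicate 3. Coding genes of 56% to 58% GC had a median change of 0.106 (n = 872), and of the 7 members in that range 1 lay above this median and 6 below it. H2BC6 was at 0.26, H1-2 at 0.09, H2BC18 at -0.08, H2BC17 at -0.19, H3C6 at -0.40, H3C12 at -0.44 and H2AC7 at -0.55.

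**Figure D5:**
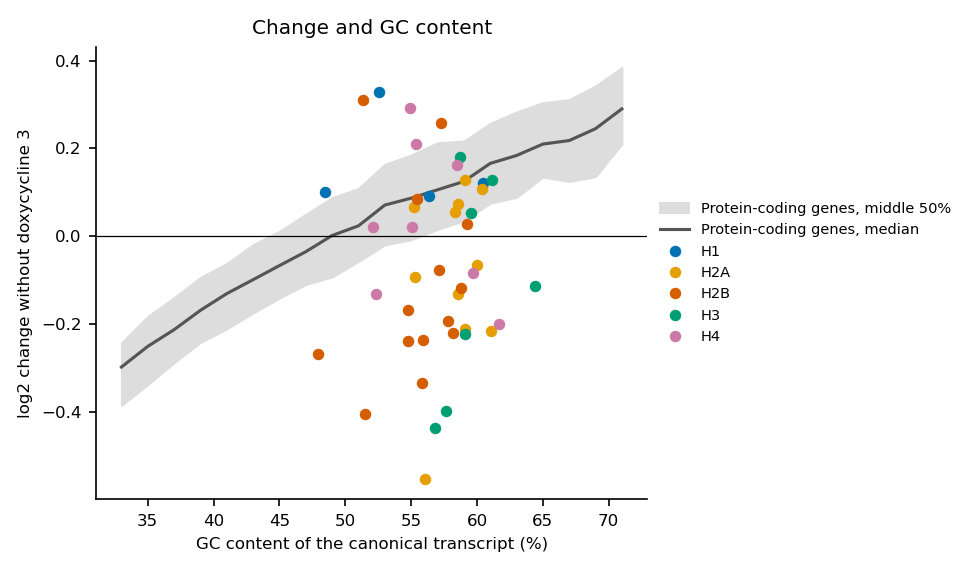
log2 change without doxycycline replicate 3 against the GC content of the reference transcript in percent. The grey line and band are the median and the middle 50% of protein-coding genes in steps of 2% GC, and colored points are the members by class. The line climbs from -0.297 at 32% to 34% GC to 0.29 at 70% to 72%, and most members of H2B lie below it.

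A correction that took this trend out of each library was added after the data were seen. With it, and without doxycycline replicate 3, 14 members were called lower (31.8%), against 1.81% of all genes tested, and 1 higher (2.27%), against 1.85%. Those lower were 7 of H2B (H2BC4, H2BC5, H2BC7, H2BC11, H2BC13, H2BC17 and H2BC21), 4 of H2A (H2AC6, H2AC11, H2AC12 and H2AC13) and 3 of H3 (H3C1, H3C6 and H3C12), and the higher one was H4C2. They shared 6 members with the 8 called before, and H1-3 (0.28, adjusted p = 0.0661) and H2AC7 (-0.63, adjusted p = 0.0686) were lost. Class medians were 0.05 for H1, -0.17 for H2A, -0.25 for H2B, -0.29 for H3 and -0.03 for H4. With 6 libraries the correction gave no call among all genes (0%), a median of -0.33 over the members, and 16 members lower and 1 higher at an unadjusted p under 0.05, against 1468 and 1801 of all genes. With a second library left out beside doxycycline replicate 3, the corrected fit called 5 members lower and 1 higher without DMSO replicate 1, against 73 and 69 of all genes (0.355% and 0.336%). Without DMSO replicate 2 it called 19 lower and 2 higher, against 637 and 576 genes (3.10% and 2.80%), and without DMSO replicate 3 it called 8 lower and 0 higher, against 95 and 123 genes (0.462% and 0.599%). Without doxycycline replicate 1 there were 4 lower and 0 higher, against 136 and 121 genes (0.662% and 0.589%). Without doxycycline replicate 2 no member was called, and 4 genes in all were lower and 1 higher.

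Genes that act on histone mRNA were read from fixed lists in the same fit, without doxycycline replicate 3, since with 6 libraries none was called. Of 12 transcription factors and cell cycle genes that drive histone transcription, 2 were called lower and 0 higher, beside 3.99% and 3.38% of all genes. NPAT, the coactivator that switches on histone genes, went from 89.1, 80.7 and 83.9 CPM to 72.7 and 63.6 CPM and to 29.6 CPM in the third doxycycline library, and fell by 0.31 ± 0.07 (adjusted p = 0.0214). CCNA2, the cyclin of S phase, fell by 0.27. YY1 (-0.004), CASP8AP2 (-0.08) and E2F1 (0.14) did not pass. Of 38 tested genes for 3′ end processing, export and decay, 3 were lower and 4 higher, beside 3.99% and 3.38% of all genes. SLBP, which binds the stem-loop, was 105.5, 106 and 103 CPM in DMSO and 108, 107 and 123 CPM with doxycycline, a change of 0.03 ± 0.06 (adjusted p = 0.767). RNU7-1, the RNA of the U7 snRNP, had 1 read in all 6 libraries. SNRPE (-0.37), SNRPG (-0.36) and PNRC2 (-0.35) fell, and SYMPK (0.34), CTIF (0.33), CDK9 (0.29) and CPSF1 (0.28) rose, of which SYMPK is the scaffold of the cleavage complex. The abundant SRSF3 (-0.15), SRSF7 (-0.06) and SNRPB (0.05) did not pass. With the GC correction no gene of either list was called lower, and SYMPK, CDK9 and CTIF were called higher, beside 1.81% and 1.85% of all genes.

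Replication-independent variants are also made outside S phase, mostly from mRNAs with poly(A) tails. Of 12 tested, H2AZ1 and H2AZ2 were called lower and none higher, beside the same shares of all genes. H2AZ1, the H2A.Z found at promoters, was 419, 374 and 410.5 CPM in DMSO and 333, 324 and 205.1 CPM with doxycycline, and fell by 0.29 ± 0.07 (adjusted p = 0.0198). H2AZ2 fell by 0.26. MACROH2A1 (0.03), MACROH2A2 (0.20) and H3-3B (-0.12) did not pass. Both H2A.Z genes were called under the GC correction as well, with H2AX (-0.22) added.

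Of 25 histone chaperones, which carry histones to DNA, ASF1A fell by 0.36, and TONSL, CHAF1A and CHAF1B rose by 0.30, 0.24 and 0.23, again beside 3.99% of all genes lower and 3.38% higher. MCM2 (0.17), NPM1 (-0.12) and SSRP1 (0.17) did not pass. Of 47 S phase genes, 3 were called lower (RRM2, DBF4 and CCNA2) and 6 higher, which were POLD1 (0.31), CDT1 (0.28), POLE (0.26), UHRF1 (0.26), LIG1 (0.25) and CLSPN (0.24), beside 3.99% and 3.38% of all genes. The helicase genes MCM3 (0.12), MCM4 (0.10) and MCM7 (0.17) were higher by values that did not pass. With the GC correction, 2 chaperones and 2 S phase genes were called, all higher, among them CHAF1B, POLE and CLSPN. Of 13 tested RNAs of other kinds that lack a poly(A) tail, SCARNA7 alone was called (-0.34, adjusted p = 0.0469), beside the same 3.99% and 3.38%. RN7SL2 (-0.17), MALAT1 (-0.02) and SNORD3A (0.16) did not pass.

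Ribo-seq held too few reads to follow the translation of histone mRNA. The libraries had 210186 to 1002424 reads on genes, and all 64 members together had 212 reads: 124, 43 and 14 in DMSO and 3, 19 and 9 with doxycycline. DMSO replicate 1 alone held 58.5% of them, and 50 members had none. H3C10 had 95 reads (75, 13 and 2 in DMSO, 1, 0 and 4 with doxycycline). All 49 reads of H3C6 came from DMSO replicate 1 and all 11 of H2AC6 from doxycycline replicate 2. H1-4 had 13 reads and H2AC11 had 12.

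Genes with at least 10 reads over the Ribo-seq libraries were tested, which 5 members were. In the Ribo-seq test edgeR called 0 of 1607 genes (0%), with 0 members at an unadjusted p under 0.05. Translation efficiency, the Ribo-seq change relative to the RNA-seq change, was tested as an interaction in 1 model, and 2 of 1334 genes were called (0.15%), neither a member. At an unadjusted p under 0.05 there were 2 members lower (H3C10 and H3C6) and 1 higher (H2AC6). Each of these had its reads mainly in a single library. The share of all genes tested that reached this unadjusted threshold was not counted for Ribo-seq or for translation efficiency. Whether the members differ from other genes in this respect therefore cannot be told. A change in the translation of these mRNAs was not detectable at this depth.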

How the data were processed

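RNA-seq and Ribo-seq libraries of 293T cells with the 4EBP1-4A construct were examined, 3 of each per treatment, grouped by the sample labels. The deposited values are raw counts of reads per gene that the authors made by alignment with STAR to GRCh38 and by counting uniquely aligned reads on exons, with linker and ribosomal RNA reads removed from Ribo-seq. GRCh37 stands in the submitters' processing notes for the annotation, and use of the strand is not given in the sources used here. All 12 columns were used, and 0 columns belonged to other samples. Gene symbols came from the authors' table of translation efficiency, whose ratios, dispersions and p-values are the authors' own comparison and were not used. Reads on genes were 5.95% to 30.8% of the RNA-seq and 0.888% to 2.95% of the Ribo-seq totals, in which a read with several alignments may count more than once, and reads without a gene stayed out of library sizes and tests.

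Libraries were scaled with TMM factors over all genes within each assay and tested with edgeR 4.0.16 (quasi-likelihood F-test, limma 3.58.1, R 4.3.3) at an adjusted p of 0.05. RNA-seq genes needed at least 10 reads in at least 3 libraries. Alternatives were other scalings, filters, DESeq2 1.42.0, a replicate block, each library left out and, added after seeing the data, a GC correction (loess of log2 level on transcript GC content per library, span 0.3) and combinations with doxycycline replicate 3 left out. Tests were tried on simulated counts. Python 3.11.15, numpy 2.4.6, pandas 2.3.3, scipy 1.17.1 and matplotlib 3.10.9 were used.

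Members and gene lists were chosen with earlier results of these data known, so lists are described by counts and medians with no test of their own. Named genes were EIF4EBP1, the 4 members of each class with the highest level, the 5 largest rises and falls, members called with 6 libraries or with at least 10 Ribo-seq reads, and from each list the 3 highest genes and the 3 with the smallest p. Members called without doxycycline replicate 3 or under the GC correction, list genes called there, and H4C5, H3C8 and the pairs were named after their values were seen.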

Additional observations from a re-analysis of the deposited data

How the results depend on the processing

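With all 6 RNA-seq libraries, no alternative with the same libraries called a member, and leaving out 1 library in turn gave calls only without doxycycline replicate 3. The counts with that library left out ranged, over fits that also lost a further library, from 0 to 19 members lower and 0 to 5 higher, and calls in the other gene lists ranged from 0 to 40. With DMSO replicate 2 also out there were 13 lower, or 19 with the GC correction and 21 list calls, and with doxycycline replicate 1 also out the GC correction gave 4 lower. Without doxycycline replicate 3 alone the counts were 6 lower and 2 higher, with 25 calls in the lists. In the same 5 libraries, DESeq2 gave 8 lower, 3 higher and 34 list calls, library totals 2, 3 and 27, TMM factors from the filtered genes 5, 3 and 25, scaling without members and mitochondrial genes 6, 3 and 25, and the GC correction 14, 1 and 10. Of all genes tested, these fits called 5.13%, 1.65%, 3.27%, 4.04% and 1.81% lower, in the same order. They called 4.82%, 7.02%, 3.75%, 3.53% and 1.85% higher.

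The replicate block, which adds the replicate number to the fit, called no member with 6 libraries, and without doxycycline replicate 3 it gave 14 lower, 5 higher and 64 list calls, or 16, 1 and 8 with the GC correction. Without that replicate it called 12.7% of all genes tested lower and 10.3% higher, or 1.596% and 1.795% with the GC correction. Same-numbered libraries deviated together with r of 0.39, -0.36 and 0.02, so the numbers were not taken as pairs.

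The median change over members moved to -0.33 with the GC correction and -0.34 with the replicate block and GC correction. Scaling to library totals raised the log2 ratio of the H1 sum to 0.34 and of the H4 sum to 0.16. That of the sum of all members rose to 0.105, and the number of members higher in every doxycycline library to 11. This scaling also moved the median change of all genes tested from -0.04 to 0.10. The share of all genes higher in every doxycycline library was not counted under it. The count of 11 therefore cannot be told apart from a shift of all genes. Over fits with 1 or 2 libraries left out and no GC correction, the change of H3C10 ranged from -0.26 without doxycycline replicate 2 to 0.28 without doxycycline replicates 3 and 1, where its direction was reversed and it was called higher. The causes were not tested. Ribo-seq and translation efficiency gave no member call under any setting, at 212 reads in all.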

Other observations

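There were 3 further histone genes, called H2AW, H2BU1 and H4-16 in the authors' symbols, which carry symbols of the H2AC, H2BC and H4C series only in the newer annotation and were left out of all counts. H2BU1 stood at 86.5, 83.4 and 93.6 CPM in DMSO and at 66.5, 72.3 and 82.6 CPM with doxycycline, so every doxycycline library lay below every DMSO library. Without doxycycline replicate 3 it fell by 0.34 ± 0.07 (adjusted p = 0.0148, edgeR's quasi-likelihood test). H2AW (76.8, 69.9 and 72.3 against 64.4, 70.4 and 62.6 CPM) overlapped between groups, and H4-16 (63.2, 63.5 and 66.8 against 62.3, 58.75 and 54.7 CPM) was lower in every doxycycline library with a change of -0.09 ± 0.07 (adjusted p = 0.407).

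Genes of other kinds in the chromosome 6 histone cluster gave 27 tested of 62. Without doxycycline replicate 3, ZNF184 was called lower (-0.29, adjusted p = 0.0386), against 3.99% of all genes tested, and none higher. The most abundant, HMGN4 (-0.01), ABT1 (0.003) and BTN2A1 (-0.006), did not pass, nor did PRSS16 (-0.37, adjusted p = 0.070). All genes of the list summed to 415 to 423.5 CPM in DMSO and 401 to 405 CPM with doxycycline. ENSG00000271755 and ENSG00000284607, with the other smallest p-values of that list, lay under 0.5 CPM in every library.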
